A study of Mus musculus with 123 samples.

Results

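The mature B cell receptor and BAFF receptor genes followed here are 9 genes expressed by mature B lymphocytes, though not all by these alone: Cd79a, Cd79b, Ms4a1, Tnfrsf13c, Cr2, Cxcr5, Pax5, Blk and Klhl14. They were listed by name, and 7 of the 9 had a probe set carrying their symbol alone among the 13053 genes measured. Cd79a and Pax5 were not analysed here. Of the 7, only Ms4a1 had 2 probe sets to choose from, and the brighter one on average was kept. The genes lie on different chromosomes in the RefSeq table (Cd79b on 11, Ms4a1 on 19, Tnfrsf13c on 15, Cr2 on 1, Cxcr5 on 9, Blk on 14 and Klhl14 on 18).

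Whole lungs of BALB/c mice were profiled in an allergic asthma model: animals are first sensitized to ovalbumin (OVA), a protein of egg white, and then meet it again. The 62 OVA-sensitized mice were sampled 8 per time, counted from the challenge, at 0, 2, 6, 48, 72, 96 and 168 h, with 6 at 24 h. The 61 naive mice formed groups of 8 at 0, 6, 24, 72 and 168 h and groups of 7 at 2, 48 and 96 h. All mice share the BALB/c background, and age, sex and dose are not given in the labels. The design text says that both arms received an OVA challenge, whereas naive titles mention PBS, and what naive mice were given is not settled by the sources used here. Whether 0 h precedes the challenge is not given either. Each array holds 1 lung of 1 animal, so the spread between replicates is biological as well as technical. In RNA of a whole lung, fewer B cells and less of a transcript in each B cell cannot be told apart.

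The B cell receptor is a membrane antibody held by the Cd79a and Cd79b chains, which carry the signal inwards, where Blk, a kinase of the Src family, is among the first enzymes to act. Cr2, the complement receptor that lowers the threshold for that signal when antigen carries complement fragments, is also found on follicular dendritic cells. Ms4a1 encodes CD20, a membrane protein of B cells that have left the precursor stage and not yet become plasma cells. Tnfrsf13c is the receptor through which the cytokine BAFF, made from Tnfsf13b, keeps mature B cells alive. Cxcr5 guides B cells into follicles along the chemokine Cxcl13. Klhl14 belongs to the Kelch-like proteins, a family that brings target proteins to ubiquitin ligases. In an allergic lung, B cells are known to gather around airways and vessels and to give rise to cells that secrete IgE and other antibodies.

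The sequences just upstream of the start sites of Tnfrsf13c and Cr2 are shown because these are the measured members with an entry in the RefSeq promoter table (build GRCm38.p6), and because the members vary together among mice. The capitals mark every GGAA, the core bound by Ets factors such as the B cell factor Spib, on either strand (TTCC where it lies on the other strand).
Tnfrsf13c, 250 bases upstream, chr15:82224381-82224630, minus strand: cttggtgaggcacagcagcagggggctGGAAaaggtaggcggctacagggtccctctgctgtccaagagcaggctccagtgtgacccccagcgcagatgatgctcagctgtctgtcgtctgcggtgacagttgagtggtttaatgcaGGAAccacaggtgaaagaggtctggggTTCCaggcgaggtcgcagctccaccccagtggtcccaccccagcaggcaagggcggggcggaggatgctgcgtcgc
Cr2, 250 bases upstream, chr1:195176720-195176969, minus strand: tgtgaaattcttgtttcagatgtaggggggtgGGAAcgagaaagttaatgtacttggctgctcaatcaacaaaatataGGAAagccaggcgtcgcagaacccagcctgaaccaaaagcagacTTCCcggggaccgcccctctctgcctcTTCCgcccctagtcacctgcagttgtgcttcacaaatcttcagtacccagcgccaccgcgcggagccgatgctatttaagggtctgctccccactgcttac
The Tnfrsf13c window held 3 such cores and the Cr2 window 4, and 93.5% of 32841 mouse promoter windows of this length held at least 1, so the match does not set these promoters apart. Neither window held the octamer ATGCAAAT (1.6% of windows did), the EBF core CCCNNGGG (11.8%) or the purine box GAGGAA (23.3%), which contains GGAA. All were searched on both strands, and the absence of these letters in these windows says nothing about the factors.

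Array medians lay between 9.32 and 9.44 on the deposited log2 scale. On 7 arrays the mean of squamous epithelium genes, a list typical of the oesophagus or upper airway, was over 8 (8.07 or higher, against 6.84 or lower on the other 116). They were sensitized replicate 7 and naive replicates 1 and 8 at 6 h, naive replicates 1 and 3 at 0 h, naive replicate 8 at 24 h and sensitized replicate 8 at 48 h. Where leaving them out changed a call, the value without them is given below, as are some differences that moved without a change of call. Cd79b, the brightest member, was never below 10.75 in any mouse, whereas Cxcr5 went down to 7.09 and Klhl14 to 5.04. No test of detection was made.

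At 0 h no B cell gene passed the test between the arms. The difference, sensitized minus naive, ranged over the 7 members between -0.26 (Klhl14) and 0.19 (Cd79b), on the log2 scale, and none passed the threshold of an adjusted p under 0.05 (limma, adjusted over all 13053 genes) or an unadjusted p under 0.05. Among all genes 14.2% passed as higher and 12.3% as lower at this time. Without the squamous arrays, of which 2 are naive mice of 0 h, the differences lay between -0.134 (Klhl14) and 0.351 (Cd79b), with Tnfrsf13c at 0.329, Blk at 0.26 and Ms4a1 at 0.168, against -0.03 for Ms4a1 with all arrays. None of these passed either. Cd79b had a median of 11.82 in sensitized lungs, against 11.62 in naive lungs. Tnfrsf13c stood at 10.19, 10.70 and 11.17 in sensitized lungs, against 10.01, 10.55 and 11.18 in naive lungs. For Tnfrsf13c the arms overlapped over nearly their whole range.

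**Figure D1:**
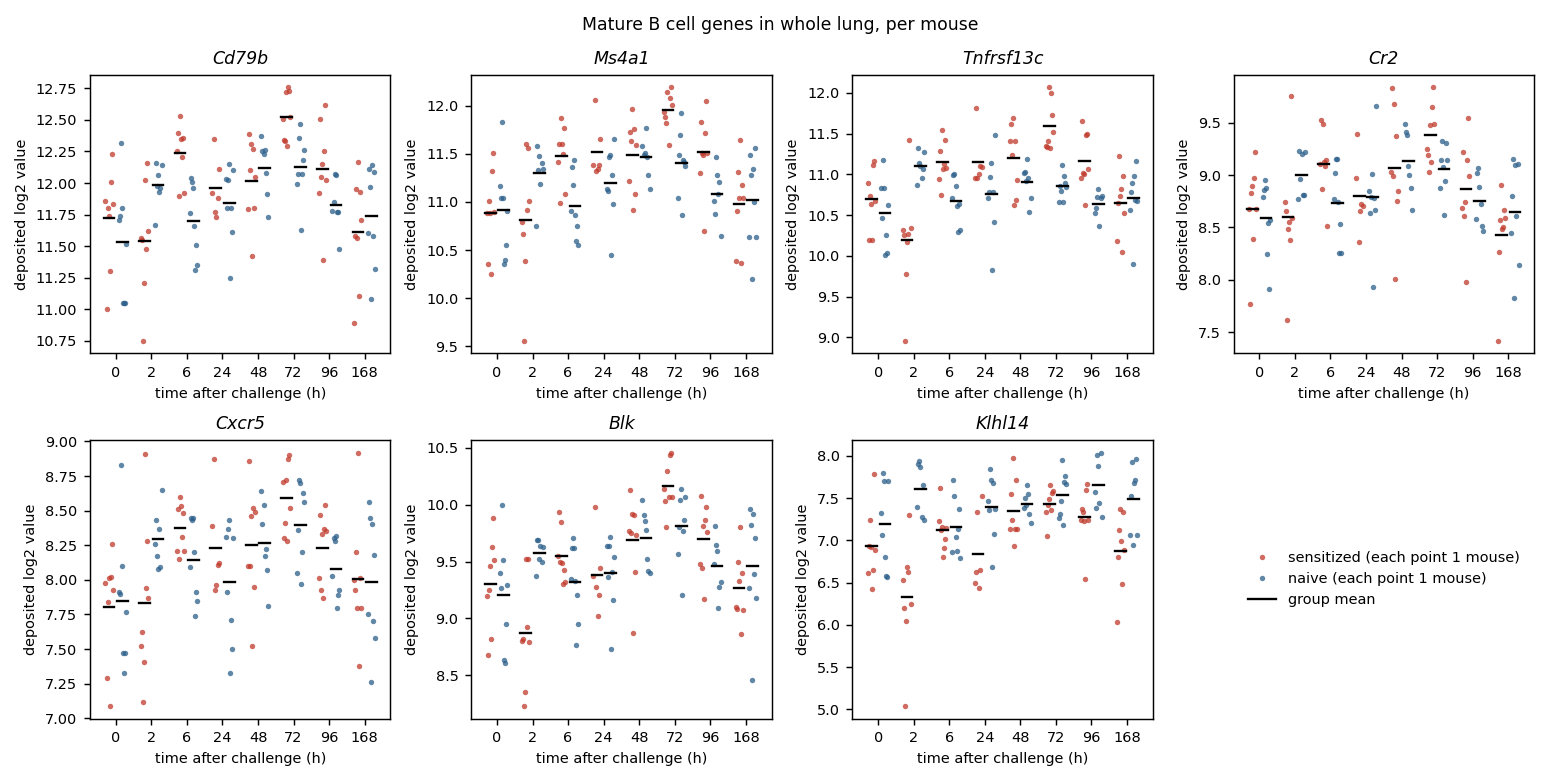
Deposited log2 value of each measured member (y axis, own scale in each panel) against time after the challenge in hours (x axis, categories), with sensitized mice in red, naive mice in blue and the group mean as a black bar. At 2 h at least 6 of 8 sensitized mice lie below every naive mouse for all members but Ms4a1, with Klhl14 as low as 5.04, and at 72 h every sensitized mouse lies above every naive mouse for Tnfrsf13c (11.32 or higher against 11.11 or lower).

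At 2 h all 7 members were lower on average in sensitized lungs, and 3 of them, Klhl14, Tnfrsf13c and Blk, fell past the threshold. Only 1.92% of all genes were called lower at this time, and 1.84% higher. Klhl14 stood at 5.04, 6.39 and 7.30 (lowest, median and highest) in the 8 sensitized lungs, against 7.24, 7.65 and 7.94 in the 7 naive lungs. Sensitized mice lay below every naive mouse in 7 of 8 cases, and the remaining one lay just above the lowest naive mouse. The Klhl14 difference was -1.28 ± 0.20 (SE, adjusted p = 6.594e-06, limma), a ratio of 0.413, and it was the lowest of all 13053 genes at this time. Klhl14 is also the dimmest member. Its mean over all arrays was 7.23, above that of 9.3% of genes, against 11.91 and 84.0% for Cd79b. The part of this low signal in the Klhl14 values was not tested.

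Tnfrsf13c, the BAFF receptor gene, stood at 8.96, 10.26 and 11.42 in sensitized lungs at 2 h, against 10.87, 11.10 and 11.32 in naive lungs. Here too 7 of 8 sensitized mice lay below every naive mouse, while the eighth, replicate 7 at 11.42, lay above all of them. Its difference was -0.91 ± 0.19 (adjusted p = 0.001075, limma), and rank 8 from the lowest. Fitted on the 2 h groups alone, where sensitized mice varied more (SD 0.68, against 0.16 in naive mice), Tnfrsf13c missed the threshold (adjusted p = 0.0559) and the other calls at 2 h remained. Blk, the Src family kinase, stood at 8.23, 8.81 and 9.52 in sensitized lungs, against 9.37, 9.63 and 9.69 in naive lungs. All 8 sensitized mice lay below the naive median for Blk, and its difference was -0.71 ± 0.18 (adjusted p = 0.01069).

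The 4 other members differed at 2 h by -0.40 (Cr2), -0.44 (Cd79b), -0.46 (Cxcr5) and -0.48 (Ms4a1), and none of these passed. Counted without adjustment, 6 of the 7 members had a p under 0.05. One animal was lowest for every member: sensitized replicate 3, with Cd79b at 10.75, Ms4a1 at 9.56 and Klhl14 at 5.04. Without it the differences were -1.09 for Klhl14, -0.74 for Tnfrsf13c and -0.62 for Blk, and all 3 still passed. The mean over the 7 members was 9.17 ± 0.54 in sensitized lungs and 9.84 ± 0.15 in naive lungs at 2 h (SD, n = 8 and 7).

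Other transcripts that differed beside the B cell genes at 2 h included part of a list of glucocorticoid-responsive genes. Of 12 measured, 7 rose and 0 fell past the threshold. Among those that rose were the chaperone gene Fkbp5 at 1.35 ± 0.19 and the transcription factor gene Zbtb16 at 1.40 ± 0.38, both named after their values were seen. Per1 (9.45 in sensitized and 9.71 in naive lungs), Dusp1 (13.25 and 13.44) and Sgk1 (13.51 and 13.61) were lower on average, without passing. The mean of this list lay between 11.65 and 12.28 in sensitized lungs, against 11.32 to 11.54 in naive lungs, without overlap. Its part in the B cell result was not tested. Of 12 measured T cell markers none passed at 2 h in either direction, and their mean was 8.97 ± 0.23 in sensitized and 8.99 ± 0.10 in naive lungs. At 0 h that mean was 9.18 ± 0.25 in sensitized and 8.91 ± 0.13 in naive lungs, so it too was lower at 2 h than at 0 h in sensitized mice.

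At 6 h the direction was the opposite. Cd79b, Ms4a1 and Tnfrsf13c rose, while 24.6% of all genes were called higher, so that 3 of 7 is not far from what genes at large did. Cd79b stood at 11.90, 12.30 and 12.53 in sensitized lungs, against 11.31, 11.71 and 12.04 in naive lungs. Its difference was 0.54 ± 0.16 (adjusted p = 0.002747). Ms4a1 differed by 0.52 ± 0.19 and Tnfrsf13c by 0.47 ± 0.18. For each of these genes all 8 sensitized mice lay above the naive median, and 5 or 6 of the 8 lay above every naive mouse. The second Ms4a1 probe set gave 0.68 ± 0.22.

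Of the 7 arrays with squamous epithelium genes 3 belong to 6 h. Without the 7 arrays Cd79b kept its call at 0.475 (adjusted p = 0.0205), whereas Ms4a1 at 0.406 and Tnfrsf13c at 0.379 did not pass (adjusted p = 0.0973 and 0.0977). Klhl14 differed by -0.04 ± 0.19 at 6 h. T cell markers were also higher at this time, with 11 of 12 past the threshold, Cd8a among them at 0.77. Their mean was 9.57 ± 0.30 in sensitized lungs and 9.0 ± 0.24 in naive lungs, and its part in the B cell values was not tested.

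**Figure D2:**
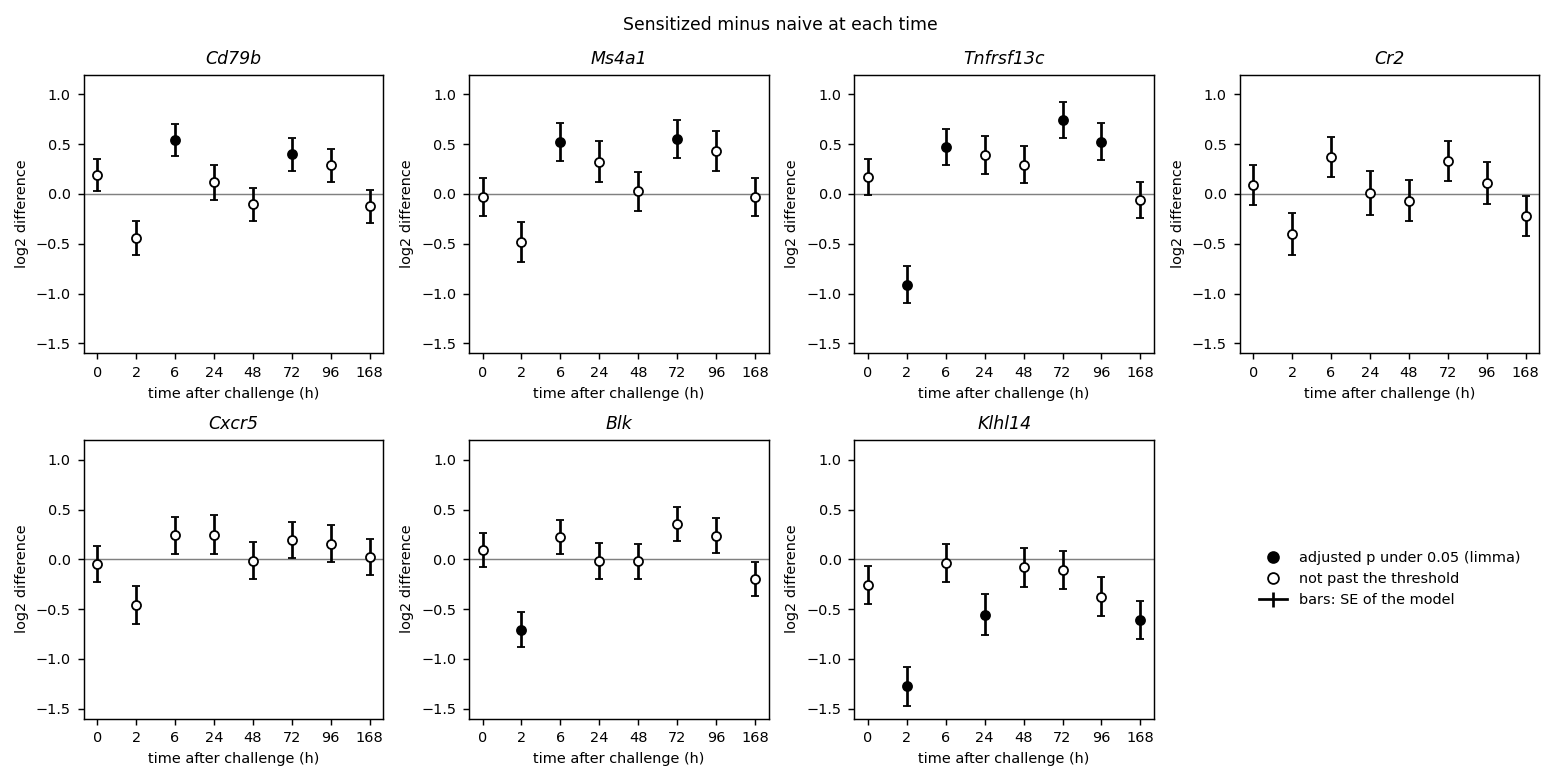
Difference of group means, sensitized minus naive, on the log2 scale (y axis, the same in all panels) against time after the challenge in hours (x axis, categories) for each measured member, with bars for the SE of the model. Filled points passed an adjusted p under 0.05 in limma: lower at 2 h for Tnfrsf13c, Blk and Klhl14 and at 24 and 168 h for Klhl14, and higher at 6 and 72 h for Cd79b, Ms4a1 and Tnfrsf13c and at 96 h for Tnfrsf13c.

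At 24 h only Klhl14 passed, and it fell, beside 24.9% of all genes called lower and 22.8% called higher. Klhl14 stood at 6.44, 6.64 and 7.52 in the 6 sensitized lungs, against 6.69, 7.42 and 7.84 in the 8 naive lungs, and 4 of the 6 sensitized mice lay below every naive mouse. The difference was -0.56 ± 0.21 (adjusted p = 0.01931), and the call was lost without sensitized replicate 1 (-0.486) or replicate 4 (-0.475). Tnfrsf13c differed by 0.39 ± 0.19 and did not pass with all arrays. It passed without the squamous arrays, at 0.493 (adjusted p = 0.029), of which naive replicate 8 is the one at 24 h. At 48 h no member passed or had an unadjusted p under 0.05 (limma; 17.0% of all genes were called higher and 18.1% lower), and the 7 differences lay between -0.10 (Cd79b) and 0.295 (Tnfrsf13c). With the squamous arrays left out they lay between -0.106 (Cd79b) and 0.335 (Tnfrsf13c), and again none passed.

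At 72 h Tnfrsf13c, Ms4a1 and Cd79b rose, beside 22.2% of all genes called higher and 26.3% called lower. Tnfrsf13c stood at 11.32, 11.47 and 12.07 in sensitized lungs, against 10.66, 10.85 and 11.11 in naive lungs. The groups did not overlap, which held for 6.92% of all genes in this direction. The difference was 0.74 ± 0.18 (adjusted p = 0.0003321), a ratio of 1.67. Ms4a1 stood at 11.59, 11.97 and 12.19 in sensitized lungs, against 10.86, 11.42 and 11.92 in naive lungs, and 5 of the 8 sensitized values exceeded all naive ones. Its difference was 0.55 ± 0.19 (adjusted p = 0.01217), and 0.56 ± 0.22 on its second probe set.

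Cd79b stood at 12.29, 12.51 and 12.76 in sensitized lungs at 72 h, against 11.63, 12.12 and 12.47 in naive lungs. Its difference was 0.40 ± 0.16 (adjusted p = 0.03437), and the call was lost on leaving out any one of 5 mice: sensitized replicates 4 (0.369), 6 (0.364) and 7 (0.368) and naive replicates 1 (0.377) and 5 (0.325). Blk at 0.35 ± 0.17 and Cr2 at 0.33 ± 0.20 did not pass, though both passed when the 72 h groups were fitted alone (adjusted p = 0.025 and 0.0304). Klhl14 differed by -0.11 ± 0.19. Thus 6 of the 7 members had a positive difference at 72 h, and Klhl14 was the exception. Markers of other cells were higher at 72 h too: 8 of 12 T cell markers rose, with a mean of 9.50 ± 0.21 in sensitized and 9.14 ± 0.14 in naive lungs, and 8 of 10 dendritic cell and macrophage markers rose, with a mean of 10.61 ± 0.14 in sensitized and 9.99 ± 0.14 in naive lungs (SD, n = 8 each). Their part in the B cell values was not tested.

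At 96 h Tnfrsf13c alone passed, at 0.52 ± 0.19 (adjusted p = 0.01693), beside 21.2% of all genes called higher. It stood at 10.62, 11.04 and 11.66 in sensitized lungs, against 10.37, 10.71 and 10.82 in naive lungs, and 7 of 8 sensitized mice lay above every naive mouse. Ms4a1 differed by 0.43 ± 0.20 and did not pass, but it passed without sensitized replicate 5 (0.547), without naive replicate 3 (0.496), with arrays weighted by their noise (0.417) and with the 96 h groups fitted alone. At 168 h Klhl14 alone passed, as lower, beside 1.41% of all genes. Klhl14 stood at 6.03, 6.93 and 7.37 in sensitized lungs, against 6.94, 7.61 and 7.96 in naive lungs, and all 8 sensitized mice lay below the naive median. The difference was -0.61 ± 0.19 (adjusted p = 0.03967). That call lies close to the threshold: leaving out any one of 9 of the 16 mice at 168 h lost it, with values between -0.611 and -0.489 (sensitized replicates 1, 2, 6 and 8 and naive replicates 2, 3, 5, 6 and 7). Fitted on the 168 h groups alone, its adjusted p was 0.116. The gap between the actin probe sets at the ends of the transcript, a sign of RNA quality, also differed at 168 h, at 1.5 ± 0.17 in sensitized and 1.21 ± 0.23 in naive lungs, and its part in the Klhl14 call was not tested.

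Averaged over the 8 times, Tnfrsf13c rose by 0.20 ± 0.07 (adjusted p = 0.003854) and Ms4a1 by 0.165 ± 0.07 (adjusted p = 0.02766, but 0.07289 on its second probe set, at 0.155), while Klhl14 fell by 0.41 ± 0.07 on the log2 scale (adjusted p = 7.787e-08). The other 4 members lay between -0.004 (Blk) and 0.11 (Cd79b) and did not pass. At this contrast 33.3% of all genes were called higher and 39.2% lower, so 2 and 1 of 7 is not more than genes at large. The median over the 7 members was 0.04, against -0.01 over all genes.

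The difference between the arms changed with time for 5 of the 7 members, Cd79b, Ms4a1, Tnfrsf13c, Blk and Klhl14, by the F test of the sensitization by time interaction. That test passed for 62.5% of all genes. The smallest adjusted p was that of Tnfrsf13c (2.037e-06), the gene with the widest swing, of -0.91 at 2 h and 0.74 at 72 h. Cr2 and Cxcr5 did not pass (adjusted p = 0.1687 and 0.1979). Of the single steps, the change of the difference between 0 h and 2 h passed for Tnfrsf13c (-1.08 ± 0.26), Klhl14 (-1.02 ± 0.27) and Blk (-0.81 ± 0.25), all lower, beside 4.34% of all genes. Cd79b passed as well without the squamous arrays, at -0.795 (adjusted p = 0.0266). At no other time did a member's difference change from that at 0 h past the threshold (limma), and 1 member at 6 h and 2 at 72 h had an unadjusted p under 0.05. Without the squamous arrays the changes at 6 and 72 h were smaller for every member. Ms4a1 stood at 0.238 at 6 h, against 0.55 with all arrays, and at 0.386 at 72 h, against 0.58. Tnfrsf13c stood at 0.05 and 0.413, against 0.301 and 0.572, and Cd79b at 0.123 and 0.046, against 0.351 and 0.207.

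The naive arm moved too. Relative to naive mice at 0 h, all 7 members were higher on average at 2, 24, 48, 72, 96 and 168 h, and at 6 h all but Klhl14 (-0.03 ± 0.19). All comparisons of this kind share the 8 naive mice of 0 h. At 2 h the differences lay between 0.37 (Blk) and 0.57 (Tnfrsf13c), and none passed (limma, 5 with an unadjusted p under 0.05), beside 1.47% of all genes called higher. Without the squamous arrays, 2 of which are naive mice of 0 h, Tnfrsf13c (0.734, adjusted p = 0.0207) and Cd79b (0.616, adjusted p = 0.0363) passed at 2 h. At 48 h Cd79b rose by 0.59 ± 0.17, Ms4a1 by 0.55 ± 0.20 and Blk by 0.50 ± 0.18, beside 7.41% of all genes. The Ms4a1 call lay at an adjusted p of 0.04876, and its second probe set did not pass (0.486, adjusted p = 0.1322). At 72 h Cd79b rose by 0.60 ± 0.16, Blk by 0.60 ± 0.17 and Cxcr5 by 0.55 ± 0.18, beside 5.53%. Without the squamous arrays Cr2 (0.629) and Cxcr5 (0.592) passed as well at 48 h, Ms4a1 (0.685) at 72 h and Klhl14 (0.591) at 96 h.

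Over the naive time course as a whole, the F test passed for Cd79b (adjusted p = 0.01437) and Blk (adjusted p = 0.04087), 2 of the 7 members, beside 38.4% of all genes. That count depends on the arrays, since it was 4 without the squamous arrays and 7 with arrays weighted by their noise. The share of 38.4% is from the main fit. No share of all genes is given for the other settings, so their counts are not set against genes at large. The hour of the day at which mice were killed is not given in the labels, and clock genes moved in naive mice between 0 h and 2 h: of 12 measured, 2 rose, among them Npas2 at 1.37 ± 0.19, and 6 fell, among them Per2 at -1.175 ± 0.22, named after their values were seen. The part of the hour of killing in the B cell values was not tested.

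In sensitized mice the F test passed for all 7 members, beside 87.8% of all genes. Relative to sensitized mice at 0 h, which all of these comparisons share, 3 members fell at 2 h, Klhl14 by 0.60 ± 0.19, Tnfrsf13c by 0.51 ± 0.18 and Blk by 0.435 ± 0.17 on the log2 scale, when 2345 of 13053 genes were called lower. At 6 h Ms4a1, Cxcr5, Cd79b and Tnfrsf13c rose, by 0.45 to 0.59, beside 21.3% of all genes. At 24 h Ms4a1 alone passed (0.64 ± 0.21, when 2348 of 13053 genes rose), but its second probe set did not (0.517, adjusted p = 0.07485). All 7 members rose at 72 h, by amounts between 0.50 for Klhl14 and 1.07 for Ms4a1, while 12.6% of all genes did. At 96 h Ms4a1 alone passed (0.63 ± 0.19, beside 8.73%), again not on its second probe set (0.451, adjusted p = 0.1277). Tnfrsf13c passed too without the squamous arrays, at 24 h (0.452, adjusted p = 0.0465) and at 96 h (0.462, adjusted p = 0.0452). At 168 h no member passed, with differences between -0.25 (Cr2) and 0.20 (Cxcr5) and none at an unadjusted p under 0.05 (limma). At 2 h the arms moved apart in opposite directions from their own 0 h groups: the mean over the 7 members was 9.17 at 2 h and 9.43 at 0 h in sensitized mice, and 9.84 at 2 h and 9.4 at 0 h in naive mice.

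Across the 16 groups, sensitized mice at 72 h held the highest mean for 6 of the 7 members, with Cd79b at 12.53, Ms4a1 at 11.96, Tnfrsf13c at 11.59, Blk at 10.16, Cr2 at 9.38 and Cxcr5 at 8.59. Klhl14 was the exception, and its highest mean was 7.66 in naive mice at 96 h. Sensitized mice at 2 h held the lowest mean for Ms4a1 (10.81), Tnfrsf13c (10.19), Blk (8.87) and Klhl14 (6.33). The lowest mean of Cd79b (11.53) was in naive mice at 0 h, that of Cr2 (8.43) in sensitized mice at 168 h and that of Cxcr5 (7.80) in sensitized mice at 0 h. Group means spanned between 0.79 (Cxcr5) and 1.40 (Tnfrsf13c).

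When the 16 means of a gene are put in order, neighbours mostly differed by less than the spread among mice of a group (residual SD 0.33 to 0.41). For Cd79b, Cr2 and Cxcr5 none of the 15 steps exceeded it. For Ms4a1, Tnfrsf13c and Blk 1 step did, the one up to sensitized mice at 72 h (0.44, 0.39 and 0.35), and for Klhl14 the one above sensitized mice at 2 h (0.51). The 16 group means held 48.9% of the variance over arrays for Tnfrsf13c and 29.6% for Cxcr5, the ends of the range over members.

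Among mice of the same group the B cell genes went up and down together. After removal of the 16 group means, the 21 pairs of members had a median Pearson r of 0.802 over all arrays (lowest 0.492, highest 0.947) and a median Spearman rho of 0.789. The points share arrays and their normalization, and as a scale for these values, a member correlated with all other genes at a median of 0.011. Without the squamous arrays the median over the pairs was 0.809 (116 arrays). Cd79b and Ms4a1 were the closest pair, while Klhl14 stood furthest from the rest, with r between 0.492 (Cxcr5) and 0.699 (Ms4a1).

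**Figure D3:**
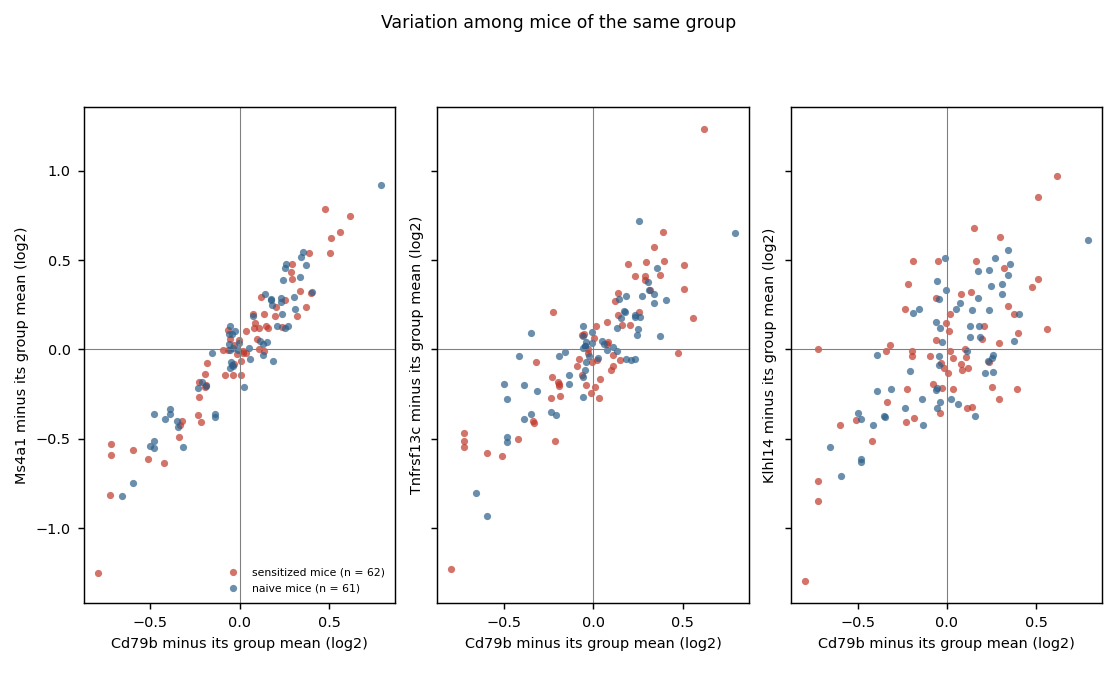
Each mouse's log2 value minus the mean of its group, for Ms4a1, Tnfrsf13c and Klhl14 (y axes) against Cd79b (x axes), with 62 sensitized mice in red and 61 naive mice in blue. Points follow a line most closely for Ms4a1 (r = 0.947), less so for Tnfrsf13c (r = 0.85) and least for Klhl14 (r = 0.677).

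The genes outside the members whose residuals were most like the members' mean were Siglecg (r = 0.959), an inhibitory lectin receptor of B cells, and Spib (r = 0.926), an Ets transcription factor. They were followed by Fcrla (0.909), Fcmr (0.907), the receptor for IgM, Tbc1d10c (0.894), Gpr18 (0.891), H2-DMb2 (0.89) and H2-Ob (0.887), which load class II molecules or regulate that step, Cd37 (0.882) and Bcl11a (0.878), over all arrays. The inhibitory B cell receptor gene Cd22 had r = 0.84. By list, the mean of 12 B cell transcription factor genes, Spib and Bcl11a among them, had r = 0.96 with the members' mean, and that of 19 other B cell surface and signalling genes had 0.92. Single genes followed the members unequally. In the first list r lay between -0.06 (Id3) and 0.926 (Spib), with Foxo1 at 0.194, Ets1 at 0.238 and Bach2 at 0.359. In the second it lay between 0.076 (Pik3ap1) and 0.909 (Fcrla). The mean of 12 T cell markers had r = 0.65, that of 12 glucocorticoid-responsive genes -0.40 and that of squamous epithelium genes 0.17. RNA quality, read as the actin gap, had r = -0.08 within groups, but it differed between groups: it was 1.05 ± 0.14 in sensitized and 1.23 ± 0.05 in naive lungs at 6 h, and 1.05 ± 0.12 in sensitized and 1.10 ± 0.05 in naive lungs at 72 h, against 1.41 and 1.40 at 0 h. Its part in the B cell values at 6 and 72 h was not tested.

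Klhl14 and Tnfrsf13c did not change equally with Cd79b in all groups. Within each array, Klhl14 minus Cd79b averaged -5.21 ± 0.29 in sensitized and -4.38 ± 0.30 in naive lungs at 2 h (SD, n = 8 and 7). At 96 h it averaged -4.84 ± 0.16 in sensitized and -4.17 ± 0.23 in naive lungs, with all 8 sensitized mice below every naive mouse. It was lower on average in sensitized lungs at 7 of 8 times, and at 48 h the arms stood at -4.66 and -4.69. Since the level of a probe set also reflects its own probes, only the change of this value between groups is of use, and no test was made of it.

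Tnfrsf13c minus Cd79b changed sides between the early and the later times. It averaged -1.35 ± 0.35 in sensitized and -0.88 ± 0.07 in naive lungs at 2 h, and 7 of 8 sensitized mice lay below every naive mouse. At 48 h it averaged -0.82 ± 0.24 in sensitized and -1.21 ± 0.14 in naive lungs, and 6 of 8 sensitized mice lay above every naive mouse. At 72 h the values were -0.93 ± 0.16 in sensitized and -1.28 ± 0.19 in naive lungs. These values are a description too, with no test.

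**Figure D4:**
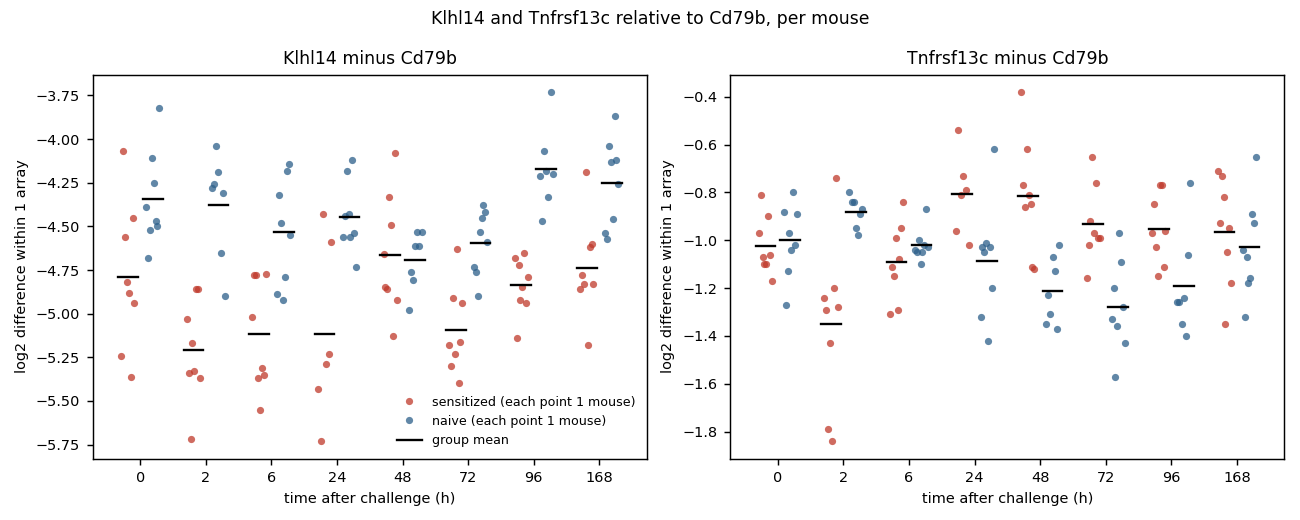
Log2 value of Klhl14 (left) and of Tnfrsf13c (right) minus that of Cd79b within the same array (y axes) against time after the challenge in hours (x axes, categories), with sensitized mice in red, naive mice in blue and group means as black bars. Klhl14 relative to Cd79b lies lower in sensitized mice at all times but 48 h, and Tnfrsf13c relative to Cd79b lies lower in sensitized mice at 2 h and higher at 48 and 72 h.

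The remaining B cell genes gave the setting. Of 19 other measured B cell surface and signalling genes, 3 fell at 2 h and none rose: H2-Ob at -0.71 ± 0.17, the IgM receptor gene Fcmr at -0.70 ± 0.20 and Ralgps2 at -0.50 ± 0.11. Cd22 stood at -0.39 ± 0.14 and did not pass. At 6 h 13 of the 19 rose, led by Fcer2a, the low-affinity IgE receptor, at 1.37 ± 0.21 and the costimulatory receptor Cd40 at 1.09 ± 0.10, which other cell types also carry. At 72 h again 13 rose, led by the adaptor gene Blnk at 1.12 ± 0.15 and Plcg2 at 0.78 ± 0.11, both of which act downstream of the B cell receptor and are also used by myeloid cells.

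Of 12 B cell transcription factor genes, 2 fell at 2 h, Spib at -0.68 ± 0.20 and Ebf1 at -0.28 ± 0.07. At 24 h, when most of that list passed, 3 rose and 6 fell, with Ikzf3 at 1.055 and Id3 at -0.43 as examples. The median difference over the list was -0.24 at 2 h and -0.14 at 24 h, against -0.01 and -0.02 over all genes.

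Genes listed with the BAFF system, which the receptor Tnfrsf13c serves, differed between the arms at most times. None of them beside Tnfrsf13c was called lower. Of the 9 others measured, 7 rose at 0 h, 8 at 6 h, 9 at 24 h and 9 at 72 h. At those times 14.2%, 24.6%, 22.8% and 22.2% of all genes were called higher. At 2 h, when Tnfrsf13c fell, 0 passed. Within groups, Traf2, Birc2, Birc3, Map3k14, Nfkb2 and Relb of this list had r between 0.036 and 0.245 with the members' mean. Tnfrsf13b had 0.817, Tnfrsf17 0.358 and Tnfsf13b 0.117. Which cells held these transcripts cannot be told apart in whole lung. Tnfsf13b, which encodes BAFF itself, differed by 0.60 ± 0.13 at 0 h, 0.10 ± 0.14 at 2 h, 1.19 ± 0.13 at 6 h and 1.22 ± 0.14 at 24 h, and all but the 2 h value passed. Its group means were 10.76 in sensitized and 10.66 in naive lungs at 2 h and 11.75 in sensitized and 10.53 in naive lungs at 24 h. Tnfsf13, the gene of the related ligand APRIL, was not analysed here.

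The other receptors of these ligands are encoded by Tnfrsf13b and Tnfrsf17. Tnfrsf13b, which encodes TACI, differed by -0.27 ± 0.15 at 2 h, without passing, and rose by 1.02 ± 0.15 at 72 h. Its group means were 9.62 in sensitized and 9.17 in naive lungs at 0 h, and 9.2 and 9.47 at 2 h. Tnfrsf17, which encodes BCMA of plasma cells, had group means of 7.42 in sensitized and 6.98 in naive lungs at 0 h. Tnfrsf17 differed by -0.03 ± 0.19 at 2 h and rose by 2.07 ± 0.18 at 72 h and 1.19 ± 0.18 at 168 h. Plasma cell genes rose with it: 8 of 11 at 72 h, with Ighm at 4.045 ± 0.50 and Mzb1 at 3.37. Ighm, the heavy chain of IgM, was higher at 2 h as well (1.985 ± 0.52), when the mature B cell genes Klhl14, Tnfrsf13c and Blk fell. It was already higher at 0 h, with group means of 13.59 in sensitized and 10.93 in naive lungs, against 11.31 and 9.33 at 2 h. In sensitized lungs Ighm was thus lower at 2 h than at 0 h. The mean of the plasma cell list there was 11.35 at 0 h and 10.86 at 2 h.

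**Figure D5:**
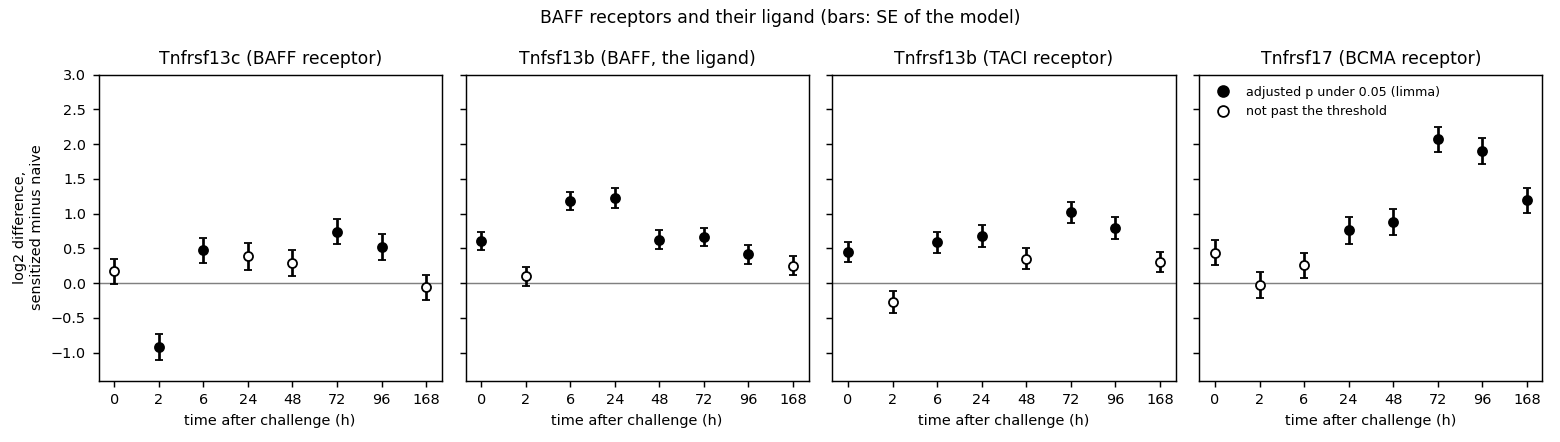
Log2 difference, sensitized minus naive (y axis, shared), against time after the challenge in hours (x axis, categories) for the BAFF receptor gene Tnfrsf13c, the ligand gene Tnfsf13b and the receptor genes Tnfrsf13b and Tnfrsf17, with bars for the SE of the model and filled points for an adjusted p under 0.05 in limma. Tnfrsf13c is lower at 2 h (-0.91), whereas Tnfsf13b peaks at 6 and 24 h (1.19 and 1.22) and Tnfrsf17 at 72 h (2.07).

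Of 9 measured genes of a lymphoid follicle list, which holds receptors as well as chemokines and cytokines, 6 rose at 6 h. At 72 h 5 rose and 3 fell. Those that fell were S1pr1 (-0.57 ± 0.13), which lets lymphocytes leave tissue, the homing receptor gene Ccr7 (-0.37) and the lymphotoxin receptor gene Ltbr (-0.14). Cxcl13, the ligand of Cxcr5, differed by -0.08 ± 0.29 at 0 h, rose by 1.15 ± 0.29 at 6 h and by 1.59 ± 0.31 at 24 h, and stood at -0.42 at 168 h without passing. Cxcr5 did not pass at any of these times, with differences between -0.46 and 0.25 over the 8 times. Fcgr2b, the inhibitory Fc receptor of B cells and myeloid cells, rose by 1.545 ± 0.19 and the lymphotoxin gene Lta by 1.097 ± 0.19 at 72 h.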

How the data were processed

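The values are log2 expression values from Affymetrix arrays, deposited by the authors and normalized with RMA per the submitters' processing notes. The labels' protocols give column-purified lung RNA labelled with a 3′ kit, and state neither an RMA version nor a filter. Of 25697 probe sets, 22478 carried 1 gene symbol in the platform annotation, 259 several and 2950 none, and 10 were controls. Where a gene had several, the probe set with the highest mean was kept, which left 13053 genes.

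limma 3.58.1 (R 4.3.3) fitted the 16 groups together, with 107 residual degrees of freedom, and p-values were adjusted by Benjamini-Hochberg over all 13053 genes within each contrast at a threshold of 0.05. Errors are SE of the model or SD among mice, and precision is limited by how many mice a group holds. Every adjusted p is from limma. Fits were tested on simulated data. Descriptions were computed in Python 3.11.15 (pandas 2.3.3, numpy 2.4.6). Alternatives were the mean of all probe sets of a gene, all probe sets tested, a filter on the gene mean, array weights, centred arrays, a trended robust prior, fits of the 2 groups at each time, arrays without squamous epithelium and leaving out each mouse. Leaving out a mouse kept the variance prior and the p threshold of the full fit.

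Named genes are the members, the 10 genes most like them, the ligand genes, Cd22, and from each other list up to 4 genes with the largest difference at the time with most calls, or those behind a small count. Other names were chosen after their values were seen. The members and lists were chosen with earlier results of these data known.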

Additional observations from a re-analysis of the deposited data

Results flagged for a closer look

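Single mice stood apart from their group for 3 members. Tnfrsf13c was 11.81 in sensitized replicate 2 at 24 h, against 10.95 to 11.10 in the other mice of that group. Cr2 was 7.42 in sensitized replicate 1 at 168 h, against 8.27 to 8.91 in the others. Klhl14 was 6.54 in sensitized replicate 5 at 96 h, against 7.23 to 7.67 in the others. These are 3 of 112 groups examined by Dixon's criterion, which picks about 1 in 20 groups by chance.

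The effect of sensitization differed between times for 5 of the 7 members by limma's F test of the interaction, beside 62.5% of all genes. The adjusted p was 0.003036 for Cd79b, 0.006896 for Ms4a1, 2.037e-06 for Tnfrsf13c, 0.003413 for Blk and 0.0008192 for Klhl14.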

How the results depend on the processing

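Over all members, times and settings, 1296 values were counted as unchanged, 20 lost a call, 15 gained one and none changed sign while called. A value called in neither fit counted as unchanged even where its sign differed. For example, Ms4a1 at 0 h stood at -0.027 in the main fit and at 0.072 with array weights. Without the squamous arrays the members called numbered 1 at 6 h, 2 at 24 h and 4 over the naive time course. Fitted on the 2 groups at each time, they numbered 5 at 72 h, 2 at 96 h and 0 at 168 h. With array weights they numbered 2 at 96 h and 7 over the naive time course. Leaving out 1 mouse at a time gave 3 to 4 members at 2 h and at 6 h, 0 to 2 at 24 h, 2 to 4 at 72 h, 1 to 2 at 96 h and 0 to 1 at 168 h. Shares of all genes under these settings are not given, so the counts are not set against genes at large. The causes of these shifts were not tested. No paired analysis was possible because every array is a separate mouse and replicate numbers follow accession order, so they pair nothing. What naive mice received and the hour of killing are not given, which limits the naive time course.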

Other observations

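Genes of germinal centres and of follicular helper T cells, the cells that assist B cells in follicles, rose in part in sensitized lungs. Of 9 measured, 6 rose and 0 fell at 6 h, and 6 rose and 1 fell at 24 h and again at 72 h, while 3 rose at 0 h, 1 at 2 h, 4 at 48 h, 4 at 96 h and 1 at 168 h. At 6 h Il21, a cytokine that acts on B cells, differed by 2.56 ± 0.30, the costimulatory receptor gene Icos by 1.59 ± 0.19 and the inhibitory receptor gene Pdcd1 by 1.45 ± 0.21, all past the threshold in limma. At 2 h, when Klhl14, Tnfrsf13c and Blk fell, Il21 alone of this list passed, at 1.08 ± 0.31 (adjusted p = 0.03283, limma). The mean of the list was 9.25 ± 0.49 in sensitized lungs and 8.40 ± 0.08 in naive lungs at 6 h (SD, n = 8 each). These genes are carried by activated T cells at large, and which cells held the transcripts cannot be told apart in whole lung.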
